A study of Mus musculus with 12 samples.

Results

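The intercalated cell acid-base genes were 8 genes chosen by name: the H+-ATPase subunits Atp6v1b1, Atp6v0d2 and Atp6v1g3, the anion exchangers Slc4a1, Slc26a4 and Slc4a9, the transcription factor Foxi1 and the carbonic anhydrase Car2. Each was matched by its NCBI Gene number, and all 8 were found among the 27179 genes in the table and passed the filter on low values that left 14972 genes. The values were TPM, a measure of transcript level scaled by length, in whole kidneys of 12 mice, with 4 groups of 3. The mice, wild-type or FAN1KO, 8 to 12 weeks old and of a mixed strain background, were given saline or cisplatin, a DNA-crosslinking drug that injures the proximal tubule, at 2 mg/kg by intraperitoneal injection in each of 5 weeks. In FAN1KO mice the repair nuclease FAN1 is deleted through Ggt1-Cre in the proximal tubule, so intercalated cells are not the cells targeted, and whether the wild-type mice carried Cre is not given in the sources used here.

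Intercalated cells are the acid-base cells of the connecting tubule and collecting duct. In all of them cytosolic carbonic anhydrase makes protons and bicarbonate from carbon dioxide and water. The type A cell pumps protons into the urine through an apical H+-ATPase and returns bicarbonate to the blood through the basolateral exchanger AE1 (Slc4a1), whereas the type B cell secretes bicarbonate through apical pendrin (Slc26a4) and carries AE4 (Slc4a9) on the basolateral side. Foxi1 is the forkhead factor without which these cells do not form. In whole-kidney RNA, fewer cells of a type and less RNA per cell cannot be told apart.

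The libraries held 37201911 to 82946962 reads in genes, and the members had 869 to 24881 reads each. Fan1 itself was at 1.98 to 3.80 TPM in wild-type and 1.17 to 2.28 TPM in FAN1KO kidneys under saline, and at 2.33 to 3.57 against 1.55 to 3.51 TPM under cisplatin, so it overlapped between genotypes in both (exact permutation p 0.2 and 0.6, two-sided) and did not check the labels. Markers of other nephron segments were present in every library, among them Lrp2 (megalin, proximal tubule) at 67.6 TPM or more, Umod (thick ascending limb) at 920.8 or more and Aqp2 (principal cells) at 140.8 or more. In 4 libraries, 1 per group, Y-linked transcripts were present, with a mean log2(TPM + 1) over Uty, Kdm5d, Eif2s3y and Ddx3y of 3.46 to 3.93 against 0.10 or less in the other 8. The 4 were replicate 3 of wild-type saline, replicate 1 of FAN1KO saline, replicate 1 of wild-type cisplatin and replicate 3 of FAN1KO cisplatin. The labels give no sex. These 4 libraries stood apart in the members too, as described below. Calls that change without them are given both ways for the members and for part of the other lists.

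The 3 H+-ATPase members are the forms of subunits B, d and G known from intercalated cells, as distinct from the forms found in most cells. Atp6v1b1 (gene 110935; chr6:83743017-83758855, GRCm38), subunit B1 of the ATP-hydrolysing sector, was at 108.8, 126.3 and 65.1 TPM in wild-type saline, 74.9, 143.4 and 149.2 in FAN1KO saline, 72.8, 100.2 and 131.7 in wild-type cisplatin and 144.9, 150.9 and 111.4 in FAN1KO cisplatin kidneys. Atp6v0d2 (242341; chr4:19876838-19922566), subunit d2 of the membrane sector, was at 29.8, 29.0 and 15.0, at 19.5, 30.8 and 45.4, at 24.8, 30.8 and 41.0, and at 42.2, 50.1 and 29.3 TPM in the same order of groups. Both genes overlapped between all groups compared, and in each group their lowest value came from the library with Y-linked transcripts. Atp6v1g3 (338375; chr1:138273738-138289462), subunit G3, was at 63.5, 87.5 and 64.9, at 57.2, 90.7 and 127.6, at 57.9, 92.8 and 120.5, and at 116.2, 155.2 and 102.6 TPM. Its FAN1KO cisplatin mean, 124.6 ± 27.3 TPM (SD, n = 3), was 1.38 times the wild-type cisplatin mean, with 1 wild-type library above 2 of the 3 FAN1KO libraries.

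Among the exchangers, Slc4a1 (20533; chr11:102348820-102365281) was the lowest of the 8 genes. It was at 17.7, 20.9 and 9.56 TPM in wild-type saline, 10.4, 25.0 and 22.2 in FAN1KO saline, 10.9, 18.2 and 18.0 in wild-type cisplatin and 9.13, 17.2 and 14.8 in FAN1KO cisplatin kidneys. It was the only member whose mean was lower in FAN1KO than in wild-type kidneys under cisplatin (13.7 ± 4.14 against 15.7 ± 4.17 TPM, SD, n = 3), and the groups overlapped. Slc26a4 (23985; chr12:31519814-31560055) was at 40.0, 39.1 and 21.2, at 32.7, 46.4 and 69.1, at 38.0, 43.6 and 58.5, and at 39.5, 69.0 and 55.7 TPM. Slc4a9 (240215; chr18:36528066-36556272) was at 64.3, 58.3 and 29.1, at 33.9, 51.3 and 83.4, at 50.9, 76.6 and 89.9, and at 94.2, 93.9 and 67.6 TPM. For both type B genes the means were higher under cisplatin than under saline in each genotype, with overlap each time.

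Foxi1 (14233; chr11:34204341-34208089) was at 25.6, 27.9 and 14.8 TPM in wild-type saline, 17.0, 29.0 and 41.8 in FAN1KO saline, 27.6, 39.5 and 45.1 in wild-type cisplatin and 47.5, 55.8 and 42.8 in FAN1KO cisplatin kidneys. All 3 FAN1KO cisplatin values were above all 3 FAN1KO saline values. Car2 (12349; chr3:14886269-14900770), the cytosolic carbonic anhydrase that other tubule cells share at lower levels, was at 434.5, 420.9 and 213.4, at 283.9, 414.1 and 545.4, at 280.3, 387.2 and 397.0, and at 586.1, 539.5 and 411.1 TPM. All 3 FAN1KO cisplatin values of Car2 were above all 3 wild-type cisplatin values.

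**Figure D1:**
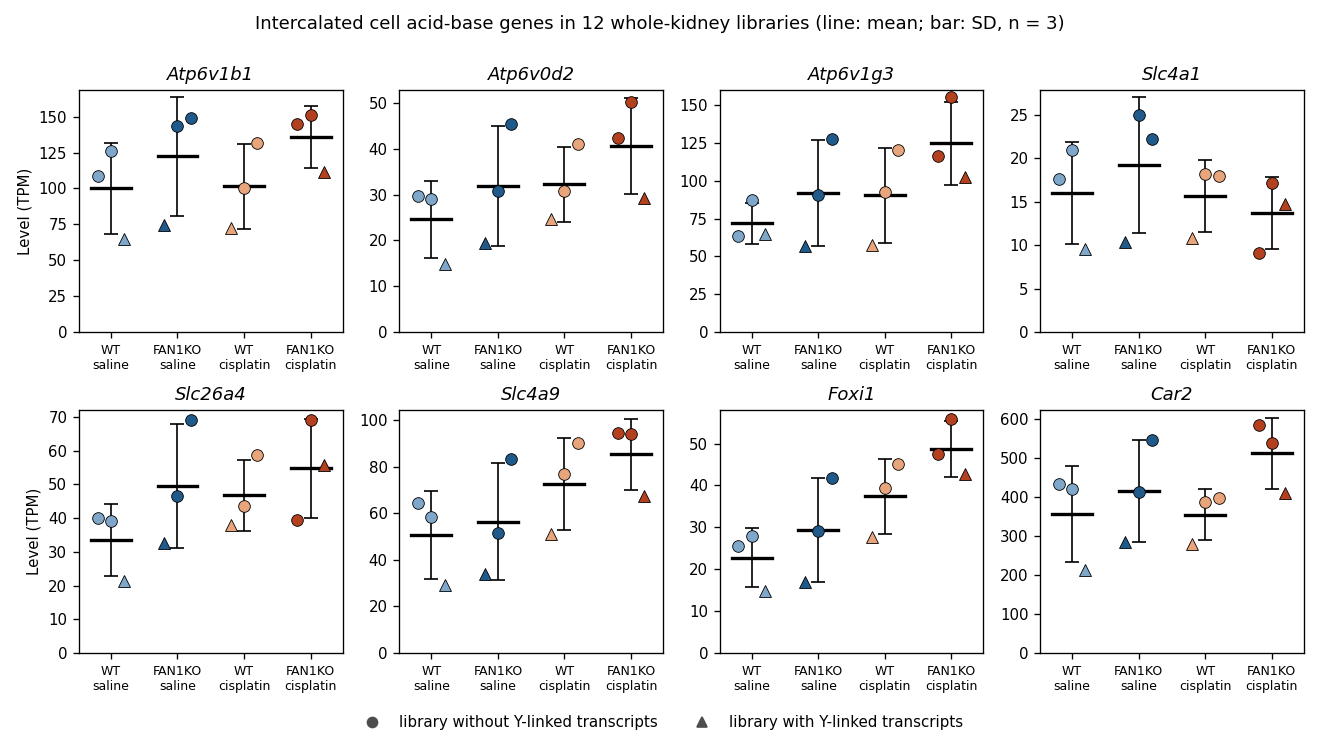
Level (TPM, vertical axis from 0) of each member in the 12 libraries by group, with 1 point per mouse, the mean as a line and the SD as a bar (n = 3), and triangles for the 4 libraries with Y-linked transcripts. The triangles are the lowest points of all 4 groups for Atp6v1b1, Atp6v0d2, Slc4a9, Foxi1 and Car2, and the groups overlap in most panels.

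Within a library the order of levels was Car2, Atp6v1b1, Atp6v1g3, Slc4a9, Slc26a4, Foxi1, Atp6v0d2 and Slc4a1, by the median TPM over 12 libraries (412.6, 118.9, 91.8, 65.9, 41.8, 34.3, 30.3 and 17.4 TPM). Car2 was 2.89 to 4.05 times Atp6v1b1, and this step, that from Slc4a9 to Slc26a4 and that from Atp6v0d2 to Slc4a1 held in 12 of 12 libraries. The steps from Atp6v1b1 to Atp6v1g3, from Atp6v1g3 to Slc4a9 and from Slc26a4 to Foxi1 held in 11 of 12. Foxi1 and Atp6v0d2 could not be ordered, since Foxi1 was the higher in 6 of 12 libraries.

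FAN1KO and wild-type kidneys were first compared under cisplatin, the condition in which the deletion is set against injury. Of the members, 0 of 8 passed an adjusted p of 0.05 (limma on log2(TPM + 1), Benjamini–Hochberg over 14972 genes), whereas 23.9% of all genes tested did. At an unadjusted p under 0.05, and by limma's voom on recovered reads, the count was also 0 of 8. The log2 fold change was above 0 for 7 of 8 members, with a median over the members of 0.36 beside 0.24 over all genes tested. Car2 had the largest, 0.53 ± 0.31 (SE, 95% interval −0.15 to 1.21, limma adjusted p 0.229), followed by Atp6v1g3 at 0.50 (−0.20 to 1.20) and Atp6v1b1 at 0.44 (−0.27 to 1.15). Slc4a1 had −0.19 (−1.03 to 0.64). Car2 was the 1 member of 8 whose groups did not overlap (exact permutation p 0.1, two-sided, the smallest that 3 against 3 mice can give), a state that 44.3% of all genes tested shared. Every interval held 0 and reached 0.64 or more on the log2 scale.

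The libraries with Y-linked transcripts bore on these calls. With the mean of the Y-linked transcripts as a covariate, Car2 (log2 fold change 0.55, limma adjusted p 0.00969) and Atp6v1b1 (0.46, 0.0181) were higher in FAN1KO kidneys under cisplatin. That was 2 of 8 members, beside 48.9% of all genes (6035 higher and 1288 lower). Without those 4 libraries, Car2 alone passed (0.52, adjusted p 0.0229), 1 of 8 members beside 36.7% of all genes (4328 higher and 1162 lower). Scaling mattered as well. The TPM of most genes were shifted upward in FAN1KO cisplatin libraries, with 2931 genes called higher and 654 lower. After scaling each library by its median ratio to the others, the counts were 1389 and 1155, and the members' median was 0.07, with 5 of 8 above 0.

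Under saline, which asks what the deletion does without the drug, 0 of 8 members passed the limma test (0 of 8 unadjusted, 0 of 8 by voom), as 0.768% of all genes did. All 8 log2 fold changes were above 0, from 0.14 (Slc4a9) to 0.54 (Slc26a4, 95% interval −0.17 to 1.25), and their median of 0.28 stood beside −0.04 over all genes. No member separated the groups, as 12.5% of all genes did. Without the library wild-type saline 3 alone, the log2 fold changes of Atp6v1b1, Slc4a1, Slc4a9 and Car2 turned to −0.0026, −0.090, −0.21 and −0.095.

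Cisplatin was compared with saline in each genotype to ask what the drug does. These comparisons share groups with those above, so their values are set side by side only. In wild-type kidneys 0 of 8 members passed (0.0601% of all genes did), and 1 of 8, Foxi1, was below an unadjusted p of 0.05 (voom, 0 of 8). The log2 fold change of Foxi1 was 0.71 ± 0.32 (SE, 95% interval 0.0022 to 1.42, limma adjusted p 1.0), that of Slc4a9 0.55 (−0.25 to 1.36), that of Slc26a4 0.50 (−0.21 to 1.21) and that of Slc4a1 0.00099 (−0.83 to 0.84). The median log2 fold change was 0.34 over the members and 0.08 over all genes. No member separated the groups, as 6.28% of all genes did.

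In FAN1KO kidneys 0 of 8 members passed as well, where 39.8% of all genes did (1 of 8 unadjusted, again Foxi1; voom, 0 of 8). Foxi1 stood at 0.80 ± 0.32 (SE, 95% interval 0.09 to 1.50, limma adjusted p 0.0710, exact permutation p 0.1), a mean of 48.7 ± 6.61 against 29.3 ± 12.4 TPM (SD, n = 3). Its groups did not overlap, nor did those of 54.9% of all genes. Slc4a9 was at 0.67 (−0.14 to 1.47) and Slc4a1 at −0.41 (−1.25 to 0.42). With the Y-linked covariate Foxi1 (0.82, limma adjusted p 0.00231), Slc4a9 (0.69, 0.00702) and Car2 (0.36, 0.0484) were higher. That was 3 of 8, beside 61.1% of all genes (7919 higher and 1222 lower). In the 8 libraries without Y-linked transcripts, Foxi1 was higher (0.55, adjusted p 0.0325) and Slc4a1 lower (−0.86, 0.0235), 2 of 8 beside 52.8%. Foxi1 also passed without FAN1KO saline 3 (1.09, adjusted p 0.0264) and without wild-type saline 3 (0.80, 0.0497). In the fit of all 12 libraries the median log2 fold change was 0.36 over the members and 0.37 over all genes, so Car2 moved no more than the median gene. After median-ratio scaling of all 12 libraries, 3 of 8 members were above 0, and Car2 was at −0.099 (limma adjusted p 0.756).

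The response to cisplatin was not shown to differ between genotypes for any member (interaction, 0 of 8 by limma, 0 of 8 unadjusted, 0 of 8 by voom, 6.24% of all genes). The largest differences were −0.41 for Slc4a1 (95% interval −1.59 to 0.77) and −0.33 for Slc26a4 (−1.33 to 0.68), against a median of 0.28 over all genes.

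**Figure D2:**
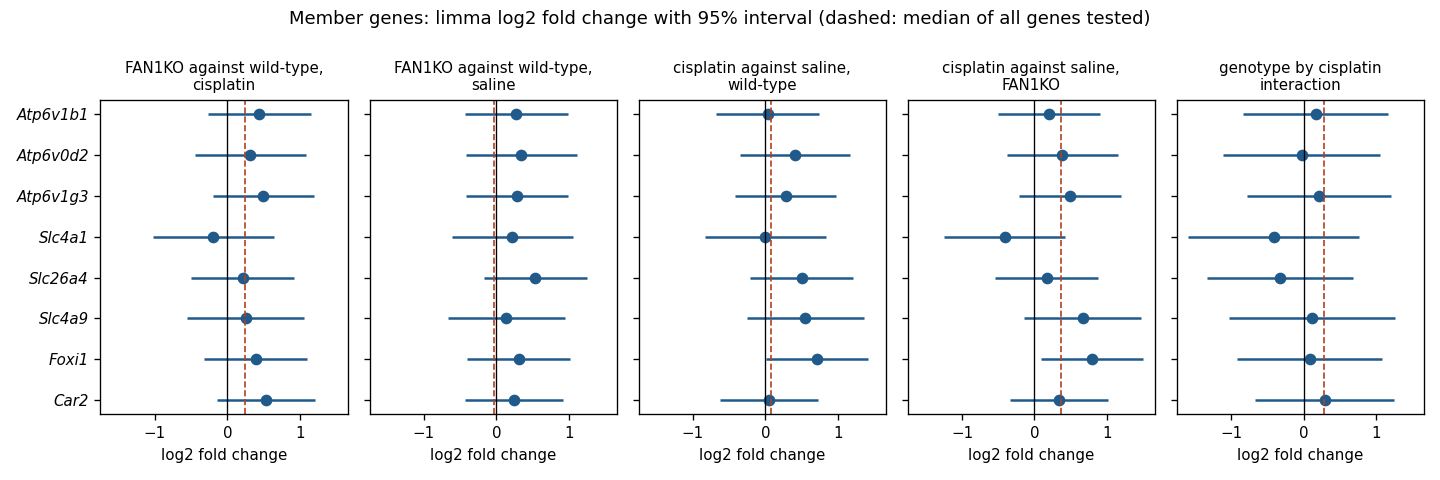
Log2 fold change (horizontal axis) of each member with its 95% interval in the 5 comparisons, from limma over 12 libraries, with the median of all genes tested as a dashed line. The intervals cross 0 except those of Foxi1 for cisplatin against saline, which begin at 0.0022 in wild-type and at 0.09 in FAN1KO kidneys.

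The members moved together from mouse to mouse. As deviations from the group means, their levels correlated with r of 0.70 (Atp6v1g3 and Car2) to 0.98 in the 28 pairs, with a median of 0.85. These are correlations over 12 libraries that share depth and scaling, given as a description. They were not set beside those of all pairs of genes, so they do not mark out the members. The 5 other genes closest to the mean of the members were Syn2 (r 0.99), Kazn (0.99), Nrarp (0.98), Plcg2 (0.98) and Kcne1 (0.98). For single members the closest were Snhg4 (Atp6v1b1), Zfp784 (Atp6v0d2), Klk1b27 (Atp6v1g3), Camkmt (Slc4a1), Insrr (Slc26a4), BC037704 (Slc4a9), Kazn (Foxi1) and Gpat3 (Car2), each with r of 0.98 to 1.00.

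Part of this shared movement went with the Y-linked transcripts. In the 4 libraries that had them, with group means kept, 7 of 8 members were lower by the limma test, and 50.0% of all genes were. The differences in log2 level ran from −0.49 (Slc26a4, adjusted p 0.05003, not under the threshold) to −0.79 (Slc4a9, adjusted p 0.000840), with a median of −0.67 beside −0.25 over all genes. Atp6v1b1 averaged 81.0 TPM in these 4 libraries and 131.9 TPM in the other 8, and Car2 297.2 and 465.6 TPM. After median-ratio scaling, 5 of 8 members (Atp6v1b1, Atp6v0d2, Slc4a9, Foxi1 and Car2) remained lower beside 21.4% of all genes. The Y-linked library was the lowest of all 4 groups for 5 of 8 members, as for 41.5% of all genes tested. Markers of other segments were lower in the same libraries, with 5 of 5 thick ascending limb genes, 5 of 6 of the distal convoluted and connecting tubule, 6 of 10 of principal cells, 8 of 9 of macrophages, 5 of 6 of tubule injury and 16 of 18 other intercalated cell genes called lower, while 0 of 10 proximal tubule markers were lower and 3 of 10 higher. Of all 14972 genes, 7484 were lower and 944 higher in these libraries. After median-ratio scaling the counts lower were 3 of 5, 3 of 6, 2 of 10, 7 of 9, 2 of 6 and 12 of 18 in the same order, and 5 of 10 proximal tubule markers were higher. Of all genes, 3206 were then lower and 3446 higher. What else these 4 libraries share cannot be told apart from the Y-linked transcripts.

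Ratios between members within a library do not depend on scaling, and they were compared between cisplatin and saline for all 28 pairs, by exact permutation within genotype (400 arrangements, smallest p 0.005, two-sided, not adjusted for the number of pairs), a comparison chosen after the levels had been seen. In 9 of the 28 cisplatin and saline did not overlap in either genotype and moved the same way in both, which is the smallest p. Over all pairs of genes with values above 0 in every library, 4.58% did so. The 28 pairs share 8 genes and are not independent. The 9 were Slc4a1 to Foxi1, to Slc4a9 and to Slc26a4, Foxi1 to Atp6v1b1, to Atp6v0d2, to Slc26a4 and to Car2, and Slc4a9 to Atp6v1b1 and to Car2.

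Slc4a1 fell relative to Foxi1. The ratio of their TPM was 0.689, 0.751 and 0.645 in wild-type saline and 0.609, 0.862 and 0.532 in FAN1KO saline kidneys. Under cisplatin it was 0.394, 0.460 and 0.400 in wild-type and 0.192, 0.308 and 0.346 in FAN1KO kidneys. Every cisplatin value was below every saline value. The mean difference within genotype was −0.996 on the log2 scale (exact permutation p 0.005), with −0.73 in wild-type and −1.26 in FAN1KO kidneys. Leaving out each library in turn gave −1.08 to −0.87. In the 8 libraries without Y-linked transcripts it was −1.11, where the smallest possible p is 0.0556.

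Slc4a1, the type A exchanger, also fell relative to the type B exchangers Slc4a9 and Slc26a4. In wild-type kidneys Slc4a1 itself had a log2 fold change of 0.00099 under cisplatin, beside 0.55 for Slc4a9 and 0.50 for Slc26a4. In FAN1KO kidneys the values were −0.41, 0.67 and 0.17 in that order. The ratios describe these genes and not the cell types. Aqp6, another type A gene, had a higher mean under cisplatin in FAN1KO kidneys (93.5 ± 10.2 against 40.0 ± 20.5 TPM, SD, n = 3). Slc4a1 to Slc4a9 was 0.275, 0.359 and 0.329 under saline and 0.213, 0.237 and 0.200 under cisplatin in wild-type mice. In FAN1KO mice it was 0.305, 0.488 and 0.267 against 0.0969, 0.183 and 0.219 (mean difference within genotype −0.84 in log2, exact permutation p 0.005). Slc4a1 to Slc26a4 went from 0.441, 0.536 and 0.450 to 0.286, 0.417 and 0.308 in wild-type kidneys, and from 0.316, 0.540 and 0.322 to 0.231, 0.249 and 0.266 in FAN1KO kidneys (−0.56, exact permutation p 0.005). Foxi1 to Car2 rose by 0.59 in log2 (exact permutation p 0.005), from 0.0590 to 0.0766 in the 6 saline libraries to 0.0811 to 0.114 in the 6 cisplatin libraries. Between genotypes 0 of 28 ratios reached the smallest p by the same test, which pools saline and cisplatin. Under cisplatin alone, Slc4a1 to Foxi1 (−0.61 in log2), Car2 (−0.74) and Slc26a4 (−0.42) were lower in FAN1KO kidneys, without overlap. Atp6v1b1 and Atp6v1g3 to Slc4a1 were higher (0.65 and 0.71), also without overlap. Slc4a1 to Slc4a9 (−0.46) and Atp6v0d2 to Slc4a1 (0.53) overlapped, as did all ratios with Slc4a1 under saline. These ratios were named after being seen, and no share of all gene pairs was computed.

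**Figure D3:**
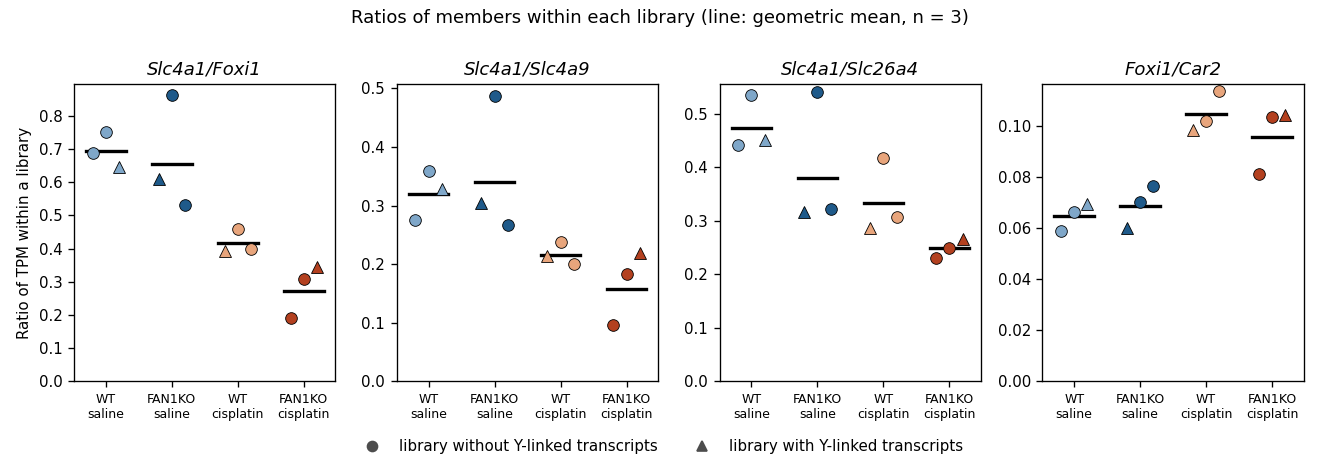
Ratio of TPM of 2 members within each library (vertical axis from 0, no unit) by group, with 1 point per mouse, the geometric mean as a line (n = 3) and triangles for libraries with Y-linked transcripts. The 3 ratios with Slc4a1 lie lower under cisplatin than under saline in each genotype, without overlap, and that of Foxi1 to Car2 lies higher.

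Slc4a1 is also the anion exchanger of red cells, so markers of the red cell line were read beside it. Of 14 such genes in the table, 7 passed the filter. Their summed level was 1161 to 5367 TPM in wild-type saline, 566.8 to 1494 in FAN1KO saline, 2338 to 6588 in wild-type cisplatin and 23.2 to 87.7 in FAN1KO cisplatin kidneys. In the comparison of FAN1KO with wild-type mice given cisplatin, 4 of the 7 were lower and 1 higher, beside 4.37% and 19.6% of all genes. Hba-a1 (alpha globin) was at 1.62, 2.23 and 18.0 TPM in FAN1KO cisplatin kidneys against 633.2, 1022 and 1537 in wild-type cisplatin kidneys (log2 fold change −7.52, limma adjusted p 0.000427). Alas2, the erythroid enzyme of haem synthesis, was at 1.01, 0.315 and 0.980 against 17.5, 28.6 and 39.5 TPM. The one higher was Klf1, an erythroid transcription factor, at 2.74, 2.58 and 2.15 against 0.366, 0.561 and 1.03 TPM (1.10, limma adjusted p 0.0224, named after its value was seen). Gata1, another erythroid factor, did not pass the filter. It was at 0 in every library but replicate 3 of wild-type cisplatin, at 0.053 TPM. Slc4a1 was at 9.13 TPM or more in FAN1KO cisplatin kidneys, where globin was lowest. In wild-type kidneys the ratio of Slc4a1 to Foxi1 was lower under cisplatin while Hba-a1 overlapped with saline (633.2 to 1537 against 235.2 to 1437 TPM). The part of red cell RNA in the Slc4a1 values was not tested.

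Foxi1 and Atp6v1b1 formed another of the 9 pairs. Atp6v1b1 was 3.57 to 4.94 times Foxi1 in the 6 saline libraries and 2.54 to 3.05 times Foxi1 in the 6 cisplatin libraries (mean difference −0.66 in log2, exact permutation p 0.005). The 250 bases before the RefSeq start of both genes are shown, since Foxi1 is a forkhead protein and Atp6v1b1 a gene of its cells. Capitals mark the forkhead-type motif TGTTTAC, searched on both strands.
Atp6v1b1, chr6:83742767-83743016, plus strand, GRCm38.p6: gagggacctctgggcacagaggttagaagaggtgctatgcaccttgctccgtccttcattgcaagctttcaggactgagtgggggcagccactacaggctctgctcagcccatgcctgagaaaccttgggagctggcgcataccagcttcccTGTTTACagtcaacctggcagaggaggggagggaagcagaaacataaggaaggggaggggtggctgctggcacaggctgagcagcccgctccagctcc
Foxi1, chr11:34208090-34208339, minus strand, GRCm38.p6: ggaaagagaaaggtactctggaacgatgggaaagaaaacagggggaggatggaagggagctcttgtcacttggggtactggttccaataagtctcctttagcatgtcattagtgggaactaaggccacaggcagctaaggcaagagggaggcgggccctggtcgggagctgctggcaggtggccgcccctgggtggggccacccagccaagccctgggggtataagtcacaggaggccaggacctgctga
The motif lay 98 bases before the start of Atp6v1b1 and was not in the window of Foxi1. Of the 4 members with a promoter in the RefSeq table (these and Atp6v1g3 and Slc26a4), 1 had it, beside 3.17% of 32851 promoters of the same length. This is a match of letters and says nothing of binding.

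The other subunits of the H+-ATPase, most of them shared by the lysosomes and endosomes of all cells, were read beside the 3 members. Some are tissue forms, among them Atp6v0a4, the a4 subunit, whose cells of origin in whole kidney were not tested. Under cisplatin 7 of 21 were higher in FAN1KO than in wild-type kidneys and 0 lower (19.6% and 4.37% of all genes), with a median log2 fold change of 0.12. The largest were Atp6v1g1 (1.06 ± 0.28, SE, limma adjusted p 0.0227), the ubiquitous form of subunit G, Tcirg1 (0.71 ± 0.14, adjusted p 0.00737), the a3 subunit known from osteoclasts, and Atp6v0a1 (0.64 ± 0.13, adjusted p 0.00759). Tcirg1 was at 39.5, 31.7 and 31.1 TPM in FAN1KO and at 19.2, 21.4 and 20.5 in wild-type kidneys. Atp6v1g1 was higher in FAN1KO kidneys under saline too, at 70.4, 63.4 and 51.7 against 35.3, 25.4 and 38.5 TPM. Those groups did not overlap, as for 12.5% of all genes, while 0 of 21 subunits were called under saline. The ubiquitous forms of the other 2 subunits were not called, with −0.10 for Atp6v1b2 and 0.13 for Atp6v0d1. After median-ratio scaling 1 of 21 was higher (Tcirg1) and 1 lower (Atp6v0a4, −0.55, adjusted p 0.00965, named after its value was seen). Of all 14972 genes, 1389 were then higher and 1155 lower. With the Y-linked covariate 8 were higher and 2 lower, beside 6035 and 1288 of all 14972 genes. Macrophage markers, whose cells carry lysosomal H+-ATPase, summed to 80.2 to 279.7 TPM in wild-type and 276.5 to 661.4 TPM in FAN1KO cisplatin kidneys. Of these markers 2 of 9 were called higher, close to the 19.6% of all genes (4 of 9 in the 8 libraries without Y-linked transcripts). The part of macrophages in the subunit changes was not tested.

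**Figure D4:**
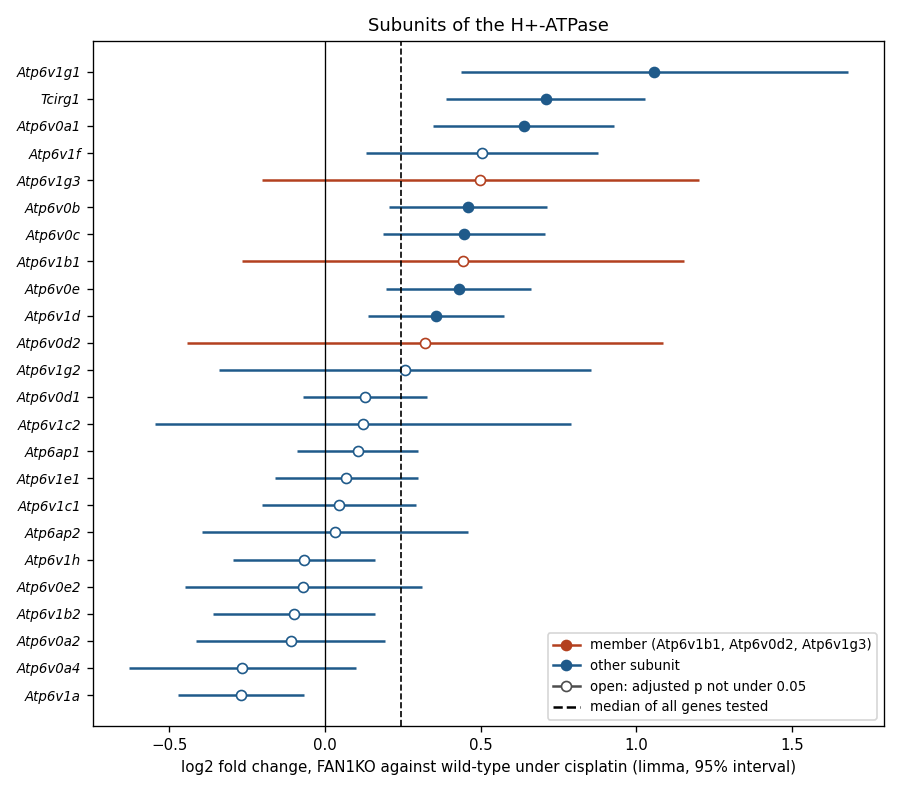
Log2 fold change (horizontal axis, limma with 95% interval) of 24 H+-ATPase subunits under cisplatin, FAN1KO against wild-type, ordered by size, with the 3 members in red and filled points for an adjusted p under 0.05. None of the 3 members is filled, while 7 of the other subunits are.

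As a share of all transcripts of its subunit, in TPM, Atp6v1b1 made up 32.0% to 58.6% of subunit B, Atp6v0d2 9.60% to 25.3% of subunit d and Atp6v1g3 43.8% to 80.0% of subunit G over the 12 libraries. The share of Atp6v1b1 was 53.2% ± 5.34 in FAN1KO and 44.0% ± 9.89 in wild-type cisplatin kidneys (SD, n = 3; exact permutation p 0.2). No share separated genotypes or treatments (exact permutation p 0.2 to 0.7).

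Other acid-base genes, of the proximal tubule and of the collecting duct, were compared in the same way. Of 7 other carbonic anhydrases, Car13 was higher in FAN1KO kidneys under cisplatin (log2 fold change 1.14, limma adjusted p 0.00662) and Car4 and Car14, the membrane-bound forms of the proximal tubule, were lower (−1.71, 0.00634, and −1.59, 0.00254). That made 1 of 7 higher and 2 lower, beside 19.6% and 4.37% of all genes. Car4 was at 62.2, 78.6 and 116.9 TPM against 425.5, 211.8 and 229.9 in wild-type kidneys. Of 11 other acid-base transporters, Atp4a, the gastric H+/K+-ATPase, and Slc4a7, a sodium bicarbonate cotransporter, were higher (2.89, 0.00152, and 0.60, 0.0446), and the proximal sodium-proton exchanger Slc9a3 was lower (−0.92, 0.0126), 3 of 11 beside 23.9% of all genes. With the Y-linked covariate 5 of the 11 were higher and 2 lower, beside 6035 and 1288 of all 14972 genes. In the 8 libraries without Y-linked transcripts 4 were higher and 1 lower, beside 4328 and 1162. Atp4a was at 29.5, 48.9 and 32.6 TPM against 3.33, 4.42 and 4.33, and in FAN1KO saline kidneys at 11.9, 19.4 and 5.30. Median-ratio scaling ended the call of Slc4a7 (0.38, limma adjusted p 0.102). Proximal tubule markers were lower in 8 of 10 genes and tubule injury markers higher in 6 of 6, beside 4.37% and 19.6% of all genes. In the 8 libraries without Y-linked transcripts these counts were 8 of 10 and 5 of 6.

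Of 18 other intercalated cell genes, 1 was higher under cisplatin in FAN1KO than in wild-type kidneys and 0 lower, beside 19.6% and 4.37% of all genes. With the Y-linked covariate 9 of 18 were higher (48.9% of all genes called in either direction), and in the 8 libraries without Y-linked transcripts 7 of 18 (36.7%), with 0 lower in both. The one called in the fit of all 12 libraries was Lgals3 (galectin 3; 2.37 ± 0.33, SE, limma adjusted p 0.00133), at 415.8, 272.5 and 210.5 against 38.4, 65.4 and 66.3 TPM, a gene that injured tubule cells and macrophages also express. The median log2 fold change of the 18 was 0.36, equal to that of the members at this precision. Aqp6, a water channel of type A cell vesicles, was at 96.6, 101.9 and 82.2 against 29.5, 62.4 and 77.1 TPM (0.82 ± 0.46, adjusted p 0.214). In FAN1KO kidneys cisplatin raised Aqp6 over saline (1.34 ± 0.46, adjusted p 0.0393), which did not hold after median-ratio scaling (0.91, 0.0783). Of the neighbouring principal cells, 5 of 10 markers were higher in FAN1KO cisplatin kidneys, Aqp2 among them (1.39 ± 0.45, adjusted p 0.0455; median-ratio scaling 1.10, 0.0730). Of the distal convoluted and connecting tubule 2 of 6 were lower and 0 higher, and of the thick ascending limb 1 of 5 was higher. In the 8 libraries without Y-linked transcripts 3 of 10 principal cell markers were higher, with Aqp2 at 0.77 (limma adjusted p 0.0185). Of the distal convoluted and connecting tubule 3 of 6 were then lower and 2 higher, and of the thick ascending limb 2 of 5 were higher.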

How the data were processed

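The authors deposited 1 table of TPM for whole-kidney RNA of 12 mice. The labels' processing notes name the mouse build mm10 and limma, and the aligner and counting program are not given in the sources used here. Each library sums to 1000000 TPM, and all columns were used. Names came from RefSeq genes of GRCm38.p6, which is the mm10 assembly. Depth is not stated, but TPM values fall on steps of single reads, which gave the reads per gene, and all 232991 values above 0 came out whole within 0.05 reads (100.0%), against 0 of 500 genes with values moved at random. The intervals and p-values cover the spread between 3 mice a group.

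Genes with at least 1 TPM in at least 3 libraries were tested. A model of 4 group means on log2(TPM + 1) was fitted over 12 libraries with limma 3.58.1 (R 4.3.3), using a mean-variance trend, so fold changes are on that scale and understate those of low genes. P-values were adjusted by Benjamini–Hochberg over genes, with a threshold of 0.05. Single values were compared by exact permutation (scipy 1.17.1). On simulated data, limma called 175 of 200 changed genes among 14972, with 6 unchanged genes called, for FAN1KO against wild-type under cisplatin. The simulation gave all genes the same low spread and no shift shared by a library. These data differ in both, so the counts check the code and not the power here. The alternatives were a pseudocount of 0.1, no filter, median-ratio scaling, the 6 libraries of a comparison, no trend, a Y-linked covariate, a replicate block, voom on recovered reads and each library left out. The fits without the 4 libraries with Y-linked transcripts, the test of those libraries and the ratios of members were added after seeing the data.

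The members and lists were chosen with earlier results of these data known. The genes named are the members, the ubiquitous forms of their subunits, up to 3 called genes with the largest change under cisplatin of each acid-base and intercalated cell list, the first gene of the marker lists on which a result turns, Alas2, Hba-a1, and the genes closest to the members by Pearson r. The authors' own comparisons were not used. Some results are not reported here.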

Additional observations from a re-analysis of the deposited data

How the results depend on the processing

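Members called stayed at 0 of 8 in the 5 comparisons with a pseudocount of 0.1, no filter, median-ratio scaling, no trend, voom and the replicate block (0 of 8; same-numbered libraries are different mice, correlated between −0.61 and 0.60, so the numbers do not pair them; genes called for cisplatin in wild-type kidneys went from 9 to 0), and in the 4 comparisons of 2 groups with only their 6 libraries (not run for the interaction). With the Y-linked covariate it was 2 for FAN1KO against wild-type under cisplatin and 3 for cisplatin in FAN1KO kidneys, and in the 8 libraries without Y-linked transcripts 1 and 2. Leaving out single libraries gave 0 to 1 for cisplatin in FAN1KO kidneys and 0 elsewhere. Genes called for FAN1KO against wild-type under cisplatin were 3585, 7323 with the covariate, 5490 in the 8 libraries, 2175 in the 6 libraries compared and 1539 without FAN1KO cisplatin 1.

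The following log2 fold changes of members, none called, turned sign. For FAN1KO against wild-type under cisplatin, median-ratio scaling gave Slc26a4 −0.072, Slc4a9 −0.033. For cisplatin in wild-type kidneys, median-ratio scaling gave Atp6v1b1 −0.063, Slc4a1 −0.090, Car2 −0.050. For cisplatin in FAN1KO kidneys, median-ratio scaling gave Atp6v1b1 −0.24, Atp6v0d2 −0.043, Slc26a4 −0.26, Car2 −0.099. For the interaction, median-ratio scaling gave Atp6v1b1 −0.17, Atp6v1g3 −0.13, Slc4a9 −0.22, Foxi1 −0.25, Car2 −0.049. For cisplatin in wild-type kidneys, voom gave Slc4a1 −0.019. For cisplatin in wild-type kidneys, the 8 libraries gave Atp6v1b1 −0.029, Slc4a1 −0.083, Car2 −0.13. For cisplatin in FAN1KO kidneys, the 8 libraries gave Slc26a4 −0.12. For the interaction, the 8 libraries gave Atp6v0d2 0.023, Atp6v1g3 −0.18, Foxi1 −0.089. Leaving out each library in turn gave ranges that crossed 0. They were Slc4a1 −0.42 to 0.057 for FAN1KO against wild-type under cisplatin. They were Atp6v1b1 −0.0026 to 0.60, Slc4a1 −0.090 to 0.59, Slc4a9 −0.21 to 0.45, Car2 −0.095 to 0.49 for FAN1KO against wild-type under saline. They were Atp6v1b1 −0.25 to 0.25, Slc4a1 −0.31 to 0.23, Car2 −0.29 to 0.23 for cisplatin in wild-type kidneys. They were Atp6v1b1 −0.12 to 0.37, Slc26a4 −0.085 to 0.44 for cisplatin in FAN1KO kidneys. They were Slc4a9 −0.19 to 0.47, Foxi1 −0.25 to 0.38, Atp6v1b1 −0.15 to 0.45, Atp6v0d2 −0.33 to 0.28, Atp6v1g3 −0.090 to 0.48 for the interaction. The causes were not tested.

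In libraries with against without Y-linked transcripts 7 of 8 members were called, 5 of 8 after median-ratio scaling, 8 of 8 without the FAN1KO cisplatin group and 5 to 8 of 8 on leaving out single libraries. Of all 14972 genes, 7161 were lower without that group and 6014 to 7715 on leaving out single libraries. With 3 mice a group the 95% intervals of members were 1.35 to 1.67 wide in log2 between 2 groups and 1.91 to 2.36 for the interaction, which limits the changes that could be detected.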
